A study of Mus musculus with 22 samples.

Results

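Ribosome biogenesis factors are the proteins that build ribosomes without staying in them. They were taken here as the genes annotated in the deposited tables with the Gene Ontology term for ribosome biogenesis, leaving out genes whose symbols start with Rpl, Rps or Mrp, most of which are cytosolic and mitochondrial ribosomal proteins. The rule gave the same 100 genes in both tables, of 55401 genes in the hepatocyte table and 55573 in the stellate cell table. Of the 100, 37 are protein-coding and 63 are annotated as pseudogenes. One coding member, Gm49378, lies over Ipo4 on the same strand of chromosome 14 and reached a mean of 0.0017 FPKM in control hepatocytes and 0.012 FPKM in control stellate cultures, so the results on coding members concern the other 36. Counts and medians over all tested members include pseudogenes. FPKM is the number of fragments per kilobase of exon, with each library scaled to a common total, and is the scale used below to compare one gene with another.

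Cells came from wild-type C57BL/6 mice on a chow diet. Primary hepatocytes were grown in Williams Medium E on collagen and received deferoxamine (DFO, a chelator that binds iron) at 100 uM or the control treatment labelled placebo, with 6 libraries in each group (DFO-Hepa and Con-Hepa). Hepatic stellate cells, the liver's vitamin A-storing pericytes, were grown in DMEM and received iron at 100 uM or placebo, with 5 libraries in each group (Fe-HSC and Con-HSC). Plating preceded treatment by 24 h and treatment lasted 24 h; the labels do not say which iron salt was used, or whether the libraries of a group came from separate animals or cultures, so the spread behind each p-value is that between libraries and may be purely technical.

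A ribosome starts in the nucleolus, where RNA polymerase I transcribes a long precursor that small nucleolar ribonucleoproteins (snoRNPs) modify and guide through cleavage. Separate sets of assembly factors then build the small and the large subunit, GTPases act as checkpoints on the way to the cytoplasm, and mitochondria assemble ribosomes of their own. The work consumes much of a growing cell's energy and tracks growth and division. Iron enters the pathway directly through oxygenases that hydroxylate ribosomal proteins and through the iron-sulphur protein Abce1, which recycles ribosomes.

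Total counts ranged from 19342490 to 41839154 in the hepatocyte libraries. Stellate libraries Con-HSC-3, Fe-HSC-3 and Fe-HSC-5 stood apart: their FPKM values summed to between 424253 and 503333, against 297988 to 333718 in the other 7, and Fe-HSC-5 had counts in only 12535 genes. Their totals were 12058226 to 22448392, against 14639862 to 32067635 in the other 7. Counts of called members are given with and without the libraries that stood apart. Some single genes and gene lists are given over the 7 libraries only, and control levels in FPKM over all control libraries. Hepatocyte markers summed to between 10850 and 12430 CPM (counts scaled to a library total of 1000000 after TMM normalisation) in control hepatocytes and between 115.5 and 236.1 CPM in control stellate cultures. In control hepatocytes Alb made up most of this sum, at a mean of 7688 CPM. Ahsg and Fgb followed at 1634 and 1306 CPM, while Cps1, Asgr1 and Tat averaged 41.2, 9.56 and 2.57 CPM. Stellate markers summed to between 2629 and 3159 CPM in control hepatocytes and between 9450 and 12870 CPM in control stellate cultures. In the hepatocytes nearly all of that sum was Vim, a broadly expressed filament gene, at 2850 ± 211 CPM (SD, n = 6); Col1a1 averaged 17.9 CPM, and the other stellate markers, such as Lrat at 0.14 CPM and Pdgfrb at 0.10 CPM, were near 0. No marker was at 0 throughout a group.

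The 36 coding factors were all expressed in both cell types. In control hepatocytes their mean levels ran from 3.34 to 41.5 FPKM with a median of 13.8, and in control stellate cultures from 2.87 to 47.1 FPKM with a median of 13.0. Abcf1, an ABC-family protein of translation initiation, had the highest level in hepatocytes at 41.5 ± 1.31 FPKM (SD, n = 6), followed by Nop56 at 38.3 ± 1.87 FPKM, a gap larger than either SD. Rsl24d1 at 30.1 ± 1.57 FPKM, Gnl2 at 29.9 ± 1.30 FPKM and Brix1 at 29.4 ± 1.89 FPKM came next and did not differ beyond their spread. In control stellate cultures the order was led by Rrs1 at 47.1 ± 6.99 FPKM (SD, n = 5), then Abcf1 at 31.0 ± 5.33 FPKM, Nop56 at 27.6 ± 4.61 FPKM, Snu13 at 24.0 ± 9.13 FPKM and Gnl1 at 23.9 ± 3.47 FPKM. From Abcf1 down, these neighbours overlapped within their SDs. Gtpbp10, a mitochondrial GTPase, was the lowest of the 36 in both cell types, at 3.34 ± 0.28 FPKM and 2.87 ± 0.25 FPKM. The 2 tables were made separately, so levels were not tested between cell types. Of the 63 pseudogenes, 5 averaged at least 1 FPKM in control hepatocytes and 6 in control stellate cultures.

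With DFO, ribosome biogenesis factors fell in hepatocytes. In the fit over all 15660 hepatocyte genes that passed the filter on low counts, 45 of the 100 members were tested (36 coding genes and 9 pseudogenes), and 28 were lower and 0 higher by edgeR's quasi-likelihood test at an adjusted p under 0.05. That is 62.2% of those tested; over all genes 30.1% were lower and 27.9% higher. Among the members not tested, 31 had 0 counts in every hepatocyte library. At an unadjusted p under 0.05, 29 members were lower and 1 higher, and DESeq2 called 28 lower and 1 higher (Sdad1). The changes were moderate: called members ranged from −0.81 to −0.12 on the log2 scale, none passed 2-fold, and the median over the 45 was −0.22, against −0.00 over all genes tested. The lowest was the pseudogene Gm6877, and the median over the 36 coding members was −0.24. In 16 members (35.6%) every DFO library was below every control library, a pattern shown by 19.4% of all genes; the opposite pattern was seen in 0 members and 16.6% of all genes. In bulk RNA of this kind, fewer cells of a type and less RNA per cell cannot be told apart.

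Each DFO library showed the shift. The median log2 deviation of the 36 coding members from the control mean lay between −0.06 and 0.04 in the control libraries and between −0.29 and −0.13 in the DFO libraries. DFO-Hepa-6 had the smallest shift, with 26 of 36 members below the control mean, against 31 to 34 in the other DFO libraries.

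The 5 snoRNP proteins all fell with DFO (median −0.40). Nop56, on chromosome 2 (mm10, chr2:130274430-130279313, plus strand), is a core protein of the box C/D snoRNPs that guide ribose methylation of ribosomal RNA. The lowest, median and highest Nop56 values were 146.2, 150.9 and 168.8 CPM in controls and 90.0, 94.5 and 103.1 CPM with DFO. The groups did not overlap, and Nop56 fell by 0.71 ± 0.05 on the log2 scale (SE; edgeR adjusted p = 3.85e-09), which is a drop by 38.8% and the largest among the coding members. Its partner Nop58 (chr1:59684971-59719044, plus strand), the other large core protein of the same particles, ran at 187.2, 200.5 and 222.4 CPM in controls and 138.5, 152.8 and 165.1 CPM with DFO. These groups did not overlap either (fell by 0.40 ± 0.05 on the log2 scale, edgeR adjusted p = 6.25e-06). Snu13 (chr15:82040525-82047598, minus strand), which binds the guide RNA's kink-turn in box C/D particles and also the U4 spliceosomal RNA, stood at 68.2, 69.5 and 72.5 CPM in controls. With DFO its lowest, median and highest values were 52.7, 55.6 and 61.9 CPM, with no overlap (fell by 0.31 ± 0.05, edgeR adjusted p = 2.15e-05).

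Gar1 (chr3:129824912-129831396, minus strand) belongs to the box H/ACA snoRNPs, which guide pseudouridylation, and to telomerase. Its lowest, median and highest values were 18.4, 22.7 and 26.3 CPM in controls and 14.6, 16.4 and 22.1 CPM with DFO. The groups overlapped through DFO-Hepa-6 at 22.1 CPM, the other 5 DFO libraries lying between 14.6 and 17.0 CPM, and Gar1 fell by 0.42 ± 0.10 on the log2 scale (edgeR adjusted p = 0.00145). Znhit6, an assembly factor of box C/D particles, went from 32.1, 35.6 and 38.0 CPM to 23.8, 26.9 and 32.7 CPM. Its groups overlapped slightly, and it fell by 0.36 ± 0.07 (edgeR adjusted p = 0.000208). Among 13 tested snoRNP genes outside the annotated set, 9 fell and 2 rose with DFO. Dkc1, the pseudouridine synthase that works with Gar1, fell by 1.17 ± 0.06 on the log2 scale, from 73.3 ± 2.72 to 32.5 ± 2.67 CPM (SD, n = 6; edgeR adjusted p = 1.35e-11). Fbl, the methyltransferase that works with Nop56 and Nop58, fell by 0.22 ± 0.07 (edgeR adjusted p = 0.0112), while the assembly factors Nufip1 and Naf1 rose by 0.21 ± 0.05 (0.00141) and 0.23 ± 0.08 (0.0204).

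**Figure D1:**
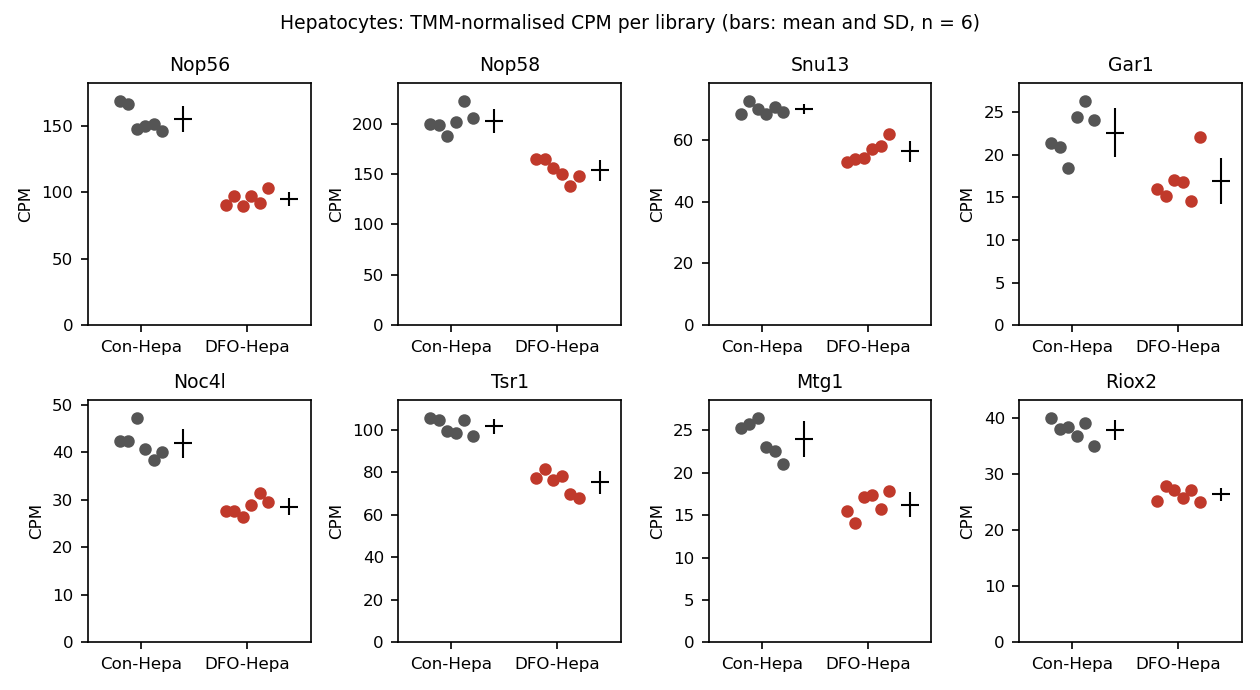
TMM-normalised CPM of 8 ribosome biogenesis factors in each hepatocyte library, control on the left and DFO on the right of each panel; points are libraries, and the bars beside them show mean and SD (n = 6). In 7 panels every DFO library lies below every control library, and in the Gar1 panel 1 DFO library reaches 22.1 CPM, inside the control range.

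The snoRNP proteins Nop56, Gar1 and Snu13 are among 9 members that fell with DFO in hepatocytes and rose with iron over 7 stellate libraries. The stretch before their start sites is shown as an example, and the others of the 9 are not shown. Rrn3, the RNA polymerase I factor, is added as an example of a window with the letters bound by MYC and its partners. The sequences are the 250 bases before the RefSeq start (GRCm38.p6, 5′ to 3′ on the gene's strand). Nop56 is chr2:130274162-130274411 on the plus strand, Gar1 is chr3:129831397-129831646 on the minus strand, Snu13 is chr15:82047599-82047848 on the minus strand and Rrn3 is chr16:13780449-13780698 on the plus strand. Capitals mark the E-box CACGTG and the ETS-type motif CCGGAAG, which reads CTTCCGG on the other strand.
Nop56: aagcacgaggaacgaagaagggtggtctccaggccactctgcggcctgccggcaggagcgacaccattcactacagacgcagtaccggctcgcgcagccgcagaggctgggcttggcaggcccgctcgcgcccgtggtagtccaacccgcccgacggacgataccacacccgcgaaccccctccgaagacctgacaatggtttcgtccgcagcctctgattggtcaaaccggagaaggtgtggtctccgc
Gar1: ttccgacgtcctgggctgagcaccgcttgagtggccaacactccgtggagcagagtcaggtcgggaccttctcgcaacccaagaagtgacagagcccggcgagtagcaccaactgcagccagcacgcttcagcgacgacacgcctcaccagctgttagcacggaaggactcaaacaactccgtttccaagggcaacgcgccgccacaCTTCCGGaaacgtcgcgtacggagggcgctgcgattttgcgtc
Snu13: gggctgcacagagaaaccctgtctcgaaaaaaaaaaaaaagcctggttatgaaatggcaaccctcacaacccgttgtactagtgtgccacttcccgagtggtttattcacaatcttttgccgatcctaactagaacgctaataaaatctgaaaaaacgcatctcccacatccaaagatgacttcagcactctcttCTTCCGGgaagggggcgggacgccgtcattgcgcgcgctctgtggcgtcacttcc
Rrn3: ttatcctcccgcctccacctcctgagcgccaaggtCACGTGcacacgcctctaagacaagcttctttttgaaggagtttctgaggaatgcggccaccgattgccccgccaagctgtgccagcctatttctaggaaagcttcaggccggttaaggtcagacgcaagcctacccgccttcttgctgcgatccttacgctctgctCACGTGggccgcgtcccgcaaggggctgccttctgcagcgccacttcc
Gar1 has the ETS-type letters 43 to 37 bases before its start and Snu13 has them 55 to 49 bases before its start. Rrn3 has E-boxes 215 to 210 and 48 to 43 bases before its start, and the Nop56 window holds neither motif.

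RefSeq windows were found for 31 of the 37 coding members, and both strands of the 250 bases were searched. The ETS-type motif was in 14 of the 31 (45.2%), against 14.9% of the 11111 tested hepatocyte genes with a window. They are Aatf, Abcf1, Brix1, Drosha, Emg1, Gar1, Ipo4, Isg20l2, Lsg1, Mphosph10, Rrp36, Rsl24d1, Snu13 and Surf6. The E-box was in 4 of the 31 (12.9%; Aatf, Abcf1, Imp4 and Rrn3) against 9.63%, and the GC box GGGCGG in 15 (48.4%) against 61.0%. The hypoxia-response core, ACGTG or GCGTG, was in 20 (64.5%) against 59.5%; every E-box also counts as a match to it. Among the 22 members with a window that fell with DFO, the ETS-type motif was in 9 (40.9%) and the E-box in 3 (13.6%). These are matches of letters, given as a description.

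RNA polymerase I is represented by 1 member, Rrn3 (TIF-IA), the factor that makes the polymerase competent to start. Rrn3 had lowest, median and highest values of 49.4, 55.9 and 59.4 CPM in controls and 48.0, 49.5 and 51.1 CPM with DFO. The ranges overlapped and Rrn3 fell by 0.15 ± 0.05 on the log2 scale (edgeR adjusted p = 0.0141), one of the smaller called changes. Of 25 other polymerase I genes tested, 10 fell and 3 rose (median −0.07).

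Of the 8 small-subunit factors, 5 fell with DFO and 0 rose (median −0.28). Noc4l (chr5:110648418-110653417, minus strand), whose yeast counterpart acts in early small-subunit assembly, had 38.5, 41.4 and 47.2 CPM in controls and 26.3, 28.2 and 31.4 CPM with DFO. Its groups did not overlap (fell by 0.55 ± 0.06, edgeR adjusted p = 2.94e-07). Tsr1 (chr11:74898071-74909342, plus strand), a GTPase-like factor of late cytoplasmic maturation, had 97.3, 102.0 and 105.5 CPM in controls and 68.1, 76.9 and 81.5 CPM with DFO. These ranges also lay apart (fell by 0.43 ± 0.05, edgeR adjusted p = 1.16e-06). Aatf, a nucleolar protein of small-subunit processing, fell by 0.39 ± 0.05 (5.74e-06), Imp4, a component of the U3 snoRNP, by 0.31 ± 0.05 (8.96e-05) and Utp23 by 0.25 ± 0.05 (0.00064), all 3 without overlap. Mphosph10, also a U3-associated factor, did not pass at −0.07 ± 0.05 (adjusted p = 0.219). Nor did Emg1, a methyltransferase of the small-subunit RNA, at −0.08 ± 0.06 (0.267), or Rrp36 at 0.08 ± 0.06 (0.287).

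Of the 7 large-subunit factors, 5 fell and 0 rose (median −0.22). Rrs1 (chr1:9545408-9547455, plus strand), whose yeast counterpart brings the small 5S particle into the large subunit, had 44.2, 50.9 and 54.9 CPM in controls and 35.7, 40.0 and 44.5 CPM with DFO. The ranges just touched (fell by 0.33 ± 0.06, edgeR adjusted p = 0.000236). Isg20l2, an exonuclease that trims a large-subunit RNA, fell by 0.27 ± 0.05 (0.000213) with no overlap. Mrto4, which in yeast holds the place of the stalk protein, fell by 0.23 ± 0.07 (0.00699), Brix1 by 0.22 ± 0.06 (0.00331) and Surf6 by 0.15 ± 0.05 (0.019), each with some overlap. Rsl24d1 stood at −0.07 ± 0.06 (adjusted p = 0.361). Sdad1 was on the other side of 0, with 81.4, 87.1 and 89.5 CPM in controls and 88.4, 91.7 and 97.5 CPM with DFO. Its ranges overlapped and it missed the threshold at 0.10 ± 0.04 (adjusted p = 0.058), but passed it with DESeq2 (0.00833), with RLE factors (0.0315) and without DFO-Hepa-6 (0.0259).

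The GTPases of cytosolic ribosome assembly had the median change nearest 0 among the role groups, at −0.11. Of 6, 2 fell: Lsg1, a cytoplasmic GTPase of the large subunit, by 0.15 ± 0.05 (adjusted p = 0.0189) and Gnl3, nucleostemin, by 0.12 ± 0.04 (0.0199). For Gnl3 the control libraries had 115.4, 118.6 and 128.2 CPM and the DFO libraries 107.9, 110.5 and 113.9 CPM, so that the groups lay apart although the change was small. Lsg1 missed the threshold without DFO-Hepa-1 (adjusted p = 0.0505). Gnl2 had 101.9, 109.8 and 116.7 CPM in controls and 103.3, 107.3 and 116.3 CPM with DFO. The ranges all but coincided, and the 95% interval of its log2 change was −0.10 to 0.08. Gtpbp4 at −0.08 ± 0.05 (0.159), Gnl3l at −0.10 ± 0.10 (0.389) and Gnl1 at −0.19 ± 0.08 (0.054) did not pass. Gnl1 did pass in 6 of the alternatives, among them without Con-Hepa-5 (0.0232), without DFO-Hepa-4 (0.0498) and without DFO-Hepa-6 (0.00434).

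Both mitochondrial large-subunit GTPases among the members fell. Mtg1 (chr7:140137564-140150786, plus strand) had 20.99, 24.2 and 26.4 CPM in controls and 14.1, 16.4 and 17.9 CPM with DFO. No library crossed over, and the fall of 0.56 ± 0.07 on the log2 scale (edgeR adjusted p = 3.36e-06), a drop by 32.1%, was second only to that of Nop56 among the coding members. Gtpbp10 (chr5:5537454-5559538, minus strand) had 20.5, 22.5 and 24.3 CPM in controls and 15.1, 16.7 and 18.4 CPM with DFO. Its groups lay apart as well (fell by 0.44 ± 0.06, adjusted p = 8.99e-06). Noa1, a mitochondrial GTPase linked to the small subunit, stood at 0.02 ± 0.06 (0.775).

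Riox1 and Riox2 use iron in their active site. Riox2 (MINA53; chr16:59471775-59492461, plus strand) and Riox1 (NO66; chr12:83950608-83952951, plus strand) are iron- and oxoglutarate-dependent oxygenases that hydroxylate histidines of ribosomal proteins. Riox2 had 35.0, 38.1 and 39.9 CPM in controls and 24.98, 26.4 and 27.9 CPM with DFO. The groups were separated by a clear gap (fell by 0.52 ± 0.05, edgeR adjusted p = 7.49e-08; a drop by 30.3%). Riox1 had 12.3, 13.2 and 14.1 CPM in controls and 9.87, 11.3 and 13.7 CPM with DFO. These overlapped, and Riox1 missed the threshold at −0.16 ± 0.08 (0.093), passing it without DFO-Hepa-5 (0.0446) or DFO-Hepa-6 (0.0199). Of the other 8 iron-dependent genes listed with them, Abce1 fell by 0.23 ± 0.06 on the log2 scale (0.00386), Ogfod1, a ribosomal prolyl hydroxylase, by 0.23 ± 0.06 (0.00281) and Jmjd4, which hydroxylates a translation termination factor, by 0.35 ± 0.05 (2.02e-05). Kdm2b, a histone demethylase of the JmjC family, fell by 0.20 ± 0.08 (0.0359). Alkbh5, an RNA demethylase, rose by 1.19 ± 0.05 (1.47e-12), Jmjd6 by 0.99 ± 0.07 (1.72e-09) and Kdm2a by 0.45 ± 0.08 (0.000143), and Kdm4a stood at 0.05 ± 0.05 (0.381). Within this list, then, oxygenases went both ways.

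Of the 4 remaining members, 3 fell. Drosha, the RNase III enzyme that starts microRNA maturation, had 45.1, 48.8 and 53.8 CPM in controls and 31.1, 37.2 and 41.2 CPM with DFO. The groups did not overlap (fell by 0.42 ± 0.06, adjusted p = 2.54e-05). The importins Ipo9 and Ipo4, which carry ribosomal proteins among other cargo into the nucleus, fell by 0.35 ± 0.06 (4.34e-05) and 0.27 ± 0.09 (0.0123). Abcf1 stayed level, with 170.1, 181.8 and 190.5 CPM in controls and 170.9, 182.0 and 191.7 CPM with DFO. Its log2 change was 0.00 with a 95% interval of −0.09 to 0.09.

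Of the 9 pseudogenes tested, 4 fell: Gm6877 by 0.81 ± 0.17 (0.000711), Gm25432, a Nop56 pseudogene, by 0.52 ± 0.09 (5.4e-05), Mrto4-ps1 by 0.46 ± 0.12 (0.00332) and Gm6457 by 0.21 ± 0.07 (0.0219). They averaged between 3.39 and 6.19 CPM in controls. A processed pseudogene can collect reads of its parent gene, so these values are uncertain. Ipo4 is uncertain for another reason, its overlap with the coding gene Gm49378 on the same strand.

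**Figure D2:**
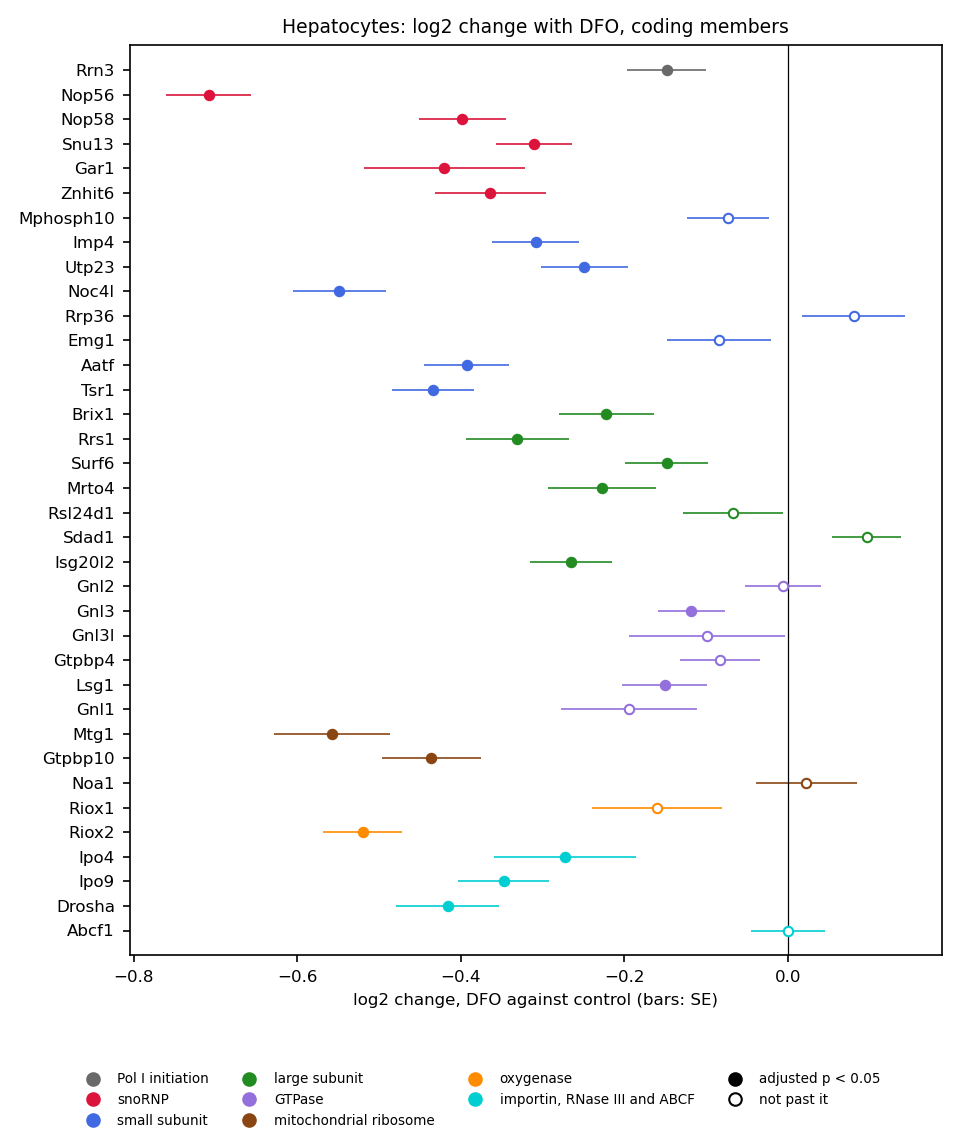
Log2 change with DFO of the 36 coding ribosome biogenesis factors in hepatocytes, ordered and coloured by role; bars are standard errors and filled points passed an adjusted p under 0.05. All 24 filled points lie left of 0, from Nop56 at −0.71 to Gnl3 at −0.12, and the 12 open points lie between −0.19 and 0.10.

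The wider pathway moved the same way. Over 220 tested genes of rRNA transcription, snoRNPs, both subunits, the exosome and RNA polymerase III that are not among the 100, 131 fell (59.5%) and 19 rose (8.64%) with DFO, with a median of −0.20. Among all genes in that fit 30.1% were lower and 27.9% higher. By part, 41 of 63 small-subunit genes, 45 of 68 large-subunit genes, 17 of 32 exosome and RNA-processing genes and 9 of 19 polymerase III genes fell, while 6, 5, 2 and 1 rose. Of the snoRNP genes 9 of 13 fell and 2 rose, and of the polymerase I genes 10 of 25 fell and 3 rose. The shares lower for polymerase I (40.0%, median −0.07) and polymerase III (47.4%) were the nearest to that of all genes. Of 17 coding members annotated to the nucleolus 10 fell, and of the other 20, which include the untested Gm49378, 14 fell. The snoRNP proteins Nop56 and Gar1 lack that annotation, so the split cannot show whether nucleolar proteins fell more often.

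Other genes moved beside them. All 23 of 23 S phase and mitosis genes fell with DFO (median −0.89), their summed level going from between 1081 and 1258 CPM to between 637.1 and 691.6 CPM. Of 11 genes of the p53 response, 6 rose (54.5%) and 1 fell (9.09%), against 27.9% and 30.1% of all genes. Among those that rose were Cdkn1a, the cell cycle inhibitor p21, up by 0.61 ± 0.06 (2.26e-07) and Mdm2, the p53 ligase, up by 0.56 ± 0.05 (4.43e-08). Zmat3 fell by 0.30 ± 0.04 (8.51e-06), and Bax, Trp53, Mdm4 and Cdkn2a did not pass. MYC drives ribosome biogenesis in many cells. Myc RNA was at 173.9 ± 4.80 CPM in controls and 165.5 ± 8.53 CPM with DFO (SD, n = 6), and did not pass at −0.07 ± 0.04 (0.178). Its antagonists went both ways. Mxd1, Mxi1 and Mnt rose by 1.91 ± 0.07 (2.95e-13), 1.55 ± 0.05 (4.71e-14) and 0.58 ± 0.05 (8.16e-08), while Mxd4 and Mxd3 fell by 0.29 ± 0.05 (0.000121) and 0.80 ± 0.21 (0.00355). Their partner Max rose by 0.24 ± 0.04 (8.84e-05). Mlx and Mycl fell by 0.18 ± 0.05 (0.00289) and 0.73 ± 0.07 (2.58e-07). Mycn rose by 1.71 ± 0.26 (2.42e-05) from a mean below 1 CPM, and Mga stood at −0.04 ± 0.14 (0.827). Summed macrophage markers went from between 183.0 and 212.9 CPM to between 274.5 and 367.4 CPM, with 10 of 13 tested higher and 0 lower. Hepatocyte markers summed to between 10850 and 12430 CPM in controls and between 12470 and 14970 CPM with DFO, with 3 of 10 higher and 5 lower, among them Cps1, up by 0.86 ± 0.08 (5.81e-08), and Hnf4a, which fell by 0.92 ± 0.05 (7.34e-11). Endothelial markers summed to between 40.1 and 47.5 CPM in controls and between 45.5 and 62.0 CPM with DFO, with 3 of 12 higher (Cdh5, Pecam1 and Stab2) and 1 lower (Eng). Of 6 stellate markers tested, 3 were higher (Reln, Rgs5 and Dcn) and 1 lower (Col1a1), their sum being 2629 to 3159 CPM in controls and 2496 to 3060 CPM with DFO. The part of these genes and cells in the fall of the ribosome biogenesis factors was not tested.

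With iron, 2 ribosome biogenesis factors rose in the stellate cultures when all 10 libraries were used, and both are snoRNP proteins. Of 43 members tested among 15502 genes, Gar1 and Nop56 were higher (4.65%) and 0 lower by edgeR's quasi-likelihood test, against 4.05% of all genes higher and 3.37% lower, so the share of members called was close to that of all genes. At an unadjusted p under 0.05, 11 members were higher and 0 lower, and DESeq2 called 7 higher and 0 lower. In 6 members (14.0%) every iron library was above every control, against 8.42% of all genes, and in 2 (4.65%) below, against 13.4%. The median log2 change over the 43 was 0.26, against −0.06 over all genes.

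Without Con-HSC-3, Fe-HSC-3 and Fe-HSC-5, which left 4 control and 3 iron libraries, more members passed. Of 46 tested among 16287 genes, 11 were higher (23.9%) and 0 lower, against 18.3% of all genes higher and 19.8% lower; the share higher was modestly above that of all genes. At an unadjusted p under 0.05 the counts were 12 and 0. Called members lay between 0.19 and 0.72 on the log2 scale. The highest was the pseudogene Gm25432, and the highest coding member was Gar1 at 0.69. The median over the 46 was 0.12 and over the 36 coding members 0.09, against 0.01 over all genes. In 13 members (28.3%) the iron libraries were all above the controls and in 2 (4.35%), Gnl3l and Surf6, all below, against 20.9% and 22.8% of all genes. Of all calls in this fit 48.1% were higher, and 58.9% with limma on log2(FPKM + 1). Leaving out Con-HSC-4 left 7 of the 11 calls.

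The medians of single libraries differed between the sets. Relative to the control mean, the median log2 deviation of the 36 coding members was 0.07, 0.08 and 0.20 in Fe-HSC-1, Fe-HSC-2 and Fe-HSC-4, with an interquartile range over members of 0.19 to 0.39. It was 0.39 in Fe-HSC-3 and 0.32 in Fe-HSC-5, where the interquartile range reached 0.94 and 2.15, and −0.33 in Con-HSC-3.

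Gar1, a snoRNP protein, had the largest log2 change with iron among the coding members, over 7 and over 10 libraries. Nop56 and the large-subunit factor Mrto4 came next over the 7 libraries, each at 0.44. Over the 7 libraries 4 of the 5 snoRNP proteins rose. Gar1 had 26.7, 27.8, 12.9, 22.9 and 27.7 CPM in control libraries 1 to 5 and 38.9, 36.2, 88.6, 53.2 and 119.9 CPM in iron libraries 1 to 5. Every iron library was above every control, with the highest in Fe-HSC-5 and Fe-HSC-3. Gar1 rose by 1.51 ± 0.37 on the log2 scale over 10 libraries (SE; edgeR adjusted p = 0.0305) and by 0.69 ± 0.12 over 7 (0.000713), an increase of 61.5%. The 10-library call was absent after leaving out any one control library, Fe-HSC-3 or Fe-HSC-4 (adjusted p from 0.0536 without Fe-HSC-4 to 0.0829 without Con-HSC-4).

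Nop56 had 119.8, 115.6, 88.8, 114.8 and 126.6 CPM in the controls and 155.6, 155.6, 233.7, 175.1 and 196.4 CPM with iron. Again no iron library reached down to a control, with or without the libraries that stood apart. Nop56 rose by 0.70 ± 0.17 over 10 libraries (edgeR adjusted p = 0.0328) and by 0.44 ± 0.07 over 7 (0.000252). Its 10-library call was absent without Con-HSC-1, Con-HSC-2, Con-HSC-4, Con-HSC-5, Fe-HSC-3 or Fe-HSC-4 (adjusted p from 0.0656 to 0.0906).

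Nop58 had 173.5, 181.9, 123.6, 183.1 and 176.8 CPM in controls and 206.9, 223.9, 186.7, 244.1 and 140.8 CPM with iron. It overlapped only through Fe-HSC-5, and rose by 0.33 ± 0.07 over 7 libraries (0.00249) but stood at 0.26 ± 0.19 over 10 (0.393). Snu13 had 80.9, 84.9, 25.2, 74.4 and 82.2 CPM in controls and 88.7, 92.6, 133.1, 111.0 and 96.4 CPM with iron. No iron library fell within the control range, and the rise was 0.27 ± 0.09 over 7 libraries (0.0252), lost without Con-HSC-4, with 0.59 ± 0.30 over 10 (0.222). Znhit6 stood at 0.04 ± 0.10 over 7 libraries (0.816), with 163.8 CPM in Fe-HSC-5 against at most 75.1 CPM elsewhere. Among 13 tested snoRNP genes outside the annotated set, 5 rose and 0 fell over 7 libraries: Fbl by 0.56 ± 0.09 (0.000412), Dkc1 by 0.37 ± 0.07 (0.000802), Ruvbl1 by 0.39 ± 0.08 (0.00158), Ruvbl2 by 0.39 ± 0.08 (0.00188) and Nhp2 by 0.41 ± 0.13 (0.0219). Over 10 libraries 0 of these 13 rose and 0 fell.

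**Figure D3:**
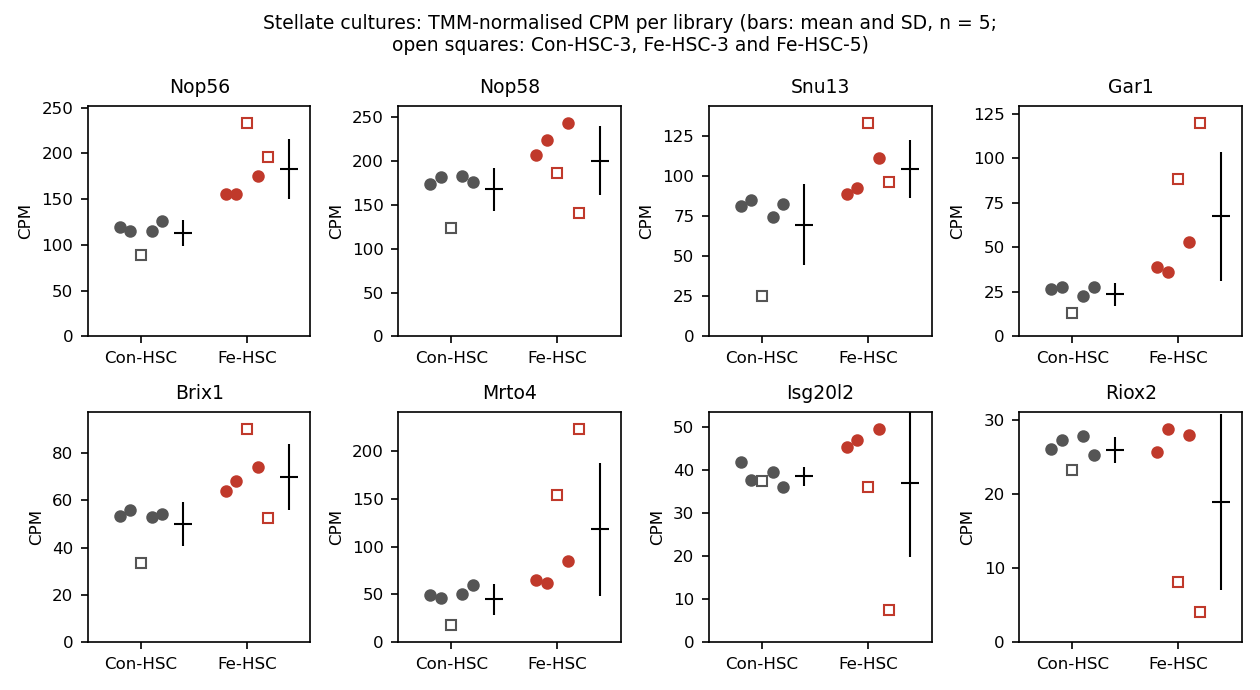
TMM-normalised CPM of 8 ribosome biogenesis factors in each stellate library, control on the left and iron on the right of each panel; open squares are Con-HSC-3, Fe-HSC-3 and Fe-HSC-5, and the bars show mean and SD over all 5 libraries. Among the filled points the iron libraries lie above the controls in 7 panels, whereas for Riox2 they overlap the controls, and the open iron squares lie at 8.18 and 4.06 CPM.

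Among large-subunit factors 3 of 7 rose over the 7 libraries. Mrto4 had 49.5, 46.7, 17.9, 50.8 and 60.4 CPM in controls and 65.2, 61.5, 154.1, 85.4 and 223.1 CPM with iron. The groups did not overlap, though Con-HSC-5 at 60.4 CPM came close to Fe-HSC-2 at 61.5 CPM, and the rise was 0.44 ± 0.12 (0.00895). Over 10 libraries Mrto4 stood at 1.39 ± 0.42 (0.0742). Brix1 had 53.5, 55.9, 33.6, 52.8 and 54.2 CPM in controls and 63.7, 68.1, 90.2, 74.1 and 52.3 CPM with iron. The iron libraries were higher apart from Fe-HSC-5, with a rise of 0.34 ± 0.07 over 7 libraries (0.00263) and 0.48 ± 0.20 over 10 (0.155).

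Isg20l2 had 41.9, 37.6, 37.5, 39.5 and 36.0 CPM in controls and 45.3, 47.0, 36.0, 49.6 and 7.59 CPM with iron. Fe-HSC-5 was far below all others, and the direction depended on the libraries: Isg20l2 rose by 0.28 ± 0.08 over 7 libraries (0.0144) and stood at −0.05 ± 0.39 over 10 (0.942). The others did not pass over 7 libraries: Rsl24d1 at 0.20 ± 0.09 (0.118), Surf6 at −0.12 ± 0.07 (0.224), Sdad1 at −0.02 ± 0.08 (0.903) and Rrs1 at −0.01 ± 0.09 (0.955).

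Of the 8 small-subunit factors, 1 rose over the 7 libraries. Emg1 had 50.6, 54.6, 33.0, 55.8 and 52.9 CPM in controls and 63.2, 64.3, 120.9, 69.1 and 130.7 CPM with iron. Its groups did not overlap, and it rose by 0.29 ± 0.07 over 7 libraries (0.006) and stood at 0.86 ± 0.26 over 10 (0.076). The others lay between −0.12 for Rrp36 and 0.13 for Mphosph10. Noc4l and Tsr1, which had fallen most with DFO in this class, stood at 0.08 ± 0.08 (0.464) and 0.13 ± 0.07 (0.196), with 95% intervals of −0.08 to 0.24 and −0.02 to 0.27.

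Among the GTPases, Gtpbp4 rose by 0.19 ± 0.07 over 7 libraries (0.0374), the smallest of the calls. It had 91.0, 91.7, 81.8, 88.8 and 92.7 CPM in controls and 98.5, 110.3, 88.6, 103.7 and 43.8 CPM with iron. The call was absent without any one of the 4 controls (adjusted p 0.0561 to 0.0765) or without Fe-HSC-2 (0.103), and the change was −0.00 ± 0.23 over 10 libraries (0.993). The mitochondrial Gtpbp10 had 20.7, 17.9, 23.5, 17.2 and 19.8 CPM in controls and 21.4, 24.0, 21.2, 24.0 and 10.4 CPM with iron. It rose by 0.29 ± 0.10 over 7 libraries (0.0348), a call lost without Con-HSC-2, Con-HSC-4 or Fe-HSC-2. Over 10 libraries Gtpbp10 stood at 0.03 ± 0.24 (0.944). Mtg1 stood at −0.11 ± 0.10 (0.45) and Noa1 at −0.06 ± 0.09 (0.636) over 7 libraries. Gm25432, named AC122861.1 in the stellate table, went from 2.66, 1.92, 1.80, 2.75 and 2.84 CPM to 3.30, 3.62, 11.5, 5.98 and 9.39 CPM. The rise was 0.72 ± 0.25 over 7 libraries (0.0346), and over 10 the change stood at 1.49 ± 0.41 (0.0516).

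The oxygenases did not pass with iron. Riox2 had 26.1, 27.3, 23.3, 27.8 and 25.3 CPM in controls and 25.7, 28.8, 8.18, 28.0 and 4.06 CPM with iron. Over 7 libraries the groups overlapped and the change was 0.04 ± 0.09 (0.74), with a 95% interval of −0.13 to 0.21. Riox1 had 10.4, 8.67, 8.50, 12.2 and 12.7 CPM in controls and 11.4, 13.5, 23.9, 15.7 and 32.2 CPM with iron. Its groups overlapped through Fe-HSC-1, at 0.29 ± 0.15 over 7 libraries (0.16) and 0.88 ± 0.31 over 10 (0.106). Of the other 8 iron-dependent genes, Alkbh5 fell by 0.27 ± 0.07 (0.00618) and Kdm2a by 0.23 ± 0.08 (0.0335) over 7 libraries, and 0 rose. Rrn3 stood at −0.01 ± 0.07 over 7 libraries (0.945). Ipo4, Ipo9, Abcf1 and Drosha lay between 0.03 and 0.19, and none of the 4 passed.

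**Figure D4:**
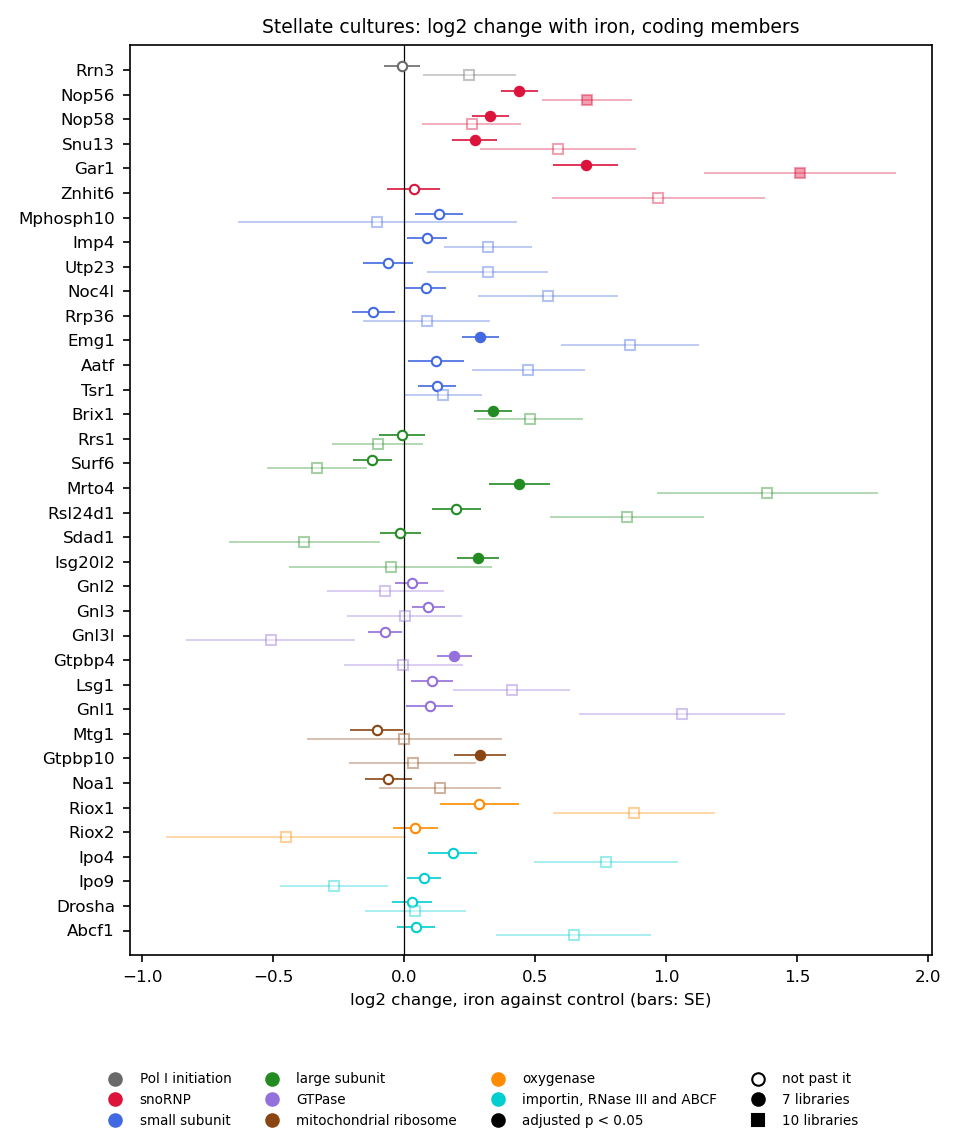
Log2 change with iron of the 36 coding ribosome biogenesis factors in stellate cultures, ordered and coloured by role; circles are the fit over 7 libraries, pale squares the fit over all 10, bars are standard errors and filled points passed an adjusted p under 0.05. There are 10 filled circles, 4 of them snoRNP proteins, and 2 filled squares, Gar1 and Nop56.

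The wider pathway over the 7 libraries had 57 of 218 genes higher (26.1%) and 6 lower (2.75%), with a median of 0.14. Among all genes in that fit 18.3% were higher and 19.8% lower. Over 10 libraries 4 pathway genes were higher (1.83%) and 0 lower, the share higher being below the 4.05% of all genes. S phase and mitosis genes rose in 23 of 23 over 7 libraries (median 0.90) and in 13 of 23 over 10. Their summed level went from between 1250 and 1414 CPM to between 2277 and 2536 CPM over the 7 libraries. Myc fell by 0.41 ± 0.07 (0.000279) over the 7 libraries and stood at −0.71 ± 0.29 (0.147) over 10. Of the rest of its network, Mycl rose by 1.65 ± 0.14 (8.61e-07) and Mxd3 by 0.98 ± 0.16 (0.000424), Mxd4 fell by 0.64 ± 0.07 (6.36e-06), Mxd1 by 0.42 ± 0.14 (0.0346) and Mnt by 0.30 ± 0.11 (0.0481), and the other 5 did not pass. Of the 11 genes of the p53 response, 1 rose and 2 fell over the 7 libraries, and 0 rose and 0 fell over 10.

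The make-up of the stellate cultures differed between the groups. Summed over 14 macrophage markers, the level was 195.7 to 271.8 CPM in controls and 2182 to 3461 CPM with iron, and 13 of 13 tested markers rose over 7 libraries. Over the 7 libraries, stellate markers summed to 9450 to 9970 CPM in controls and 7047 to 8049 CPM with iron, with 10 of 12 lower and 1 higher. Endothelial markers summed to 704.7 to 774.0 and 915.4 to 974.1 CPM, with 11 of 12 higher, and hepatocyte markers to 165.9 to 236.1 and 55.6 to 121.7 CPM, with 10 of 10 lower. Most of the endothelial sum in controls was Eng, at a mean of 657.2 CPM over all control libraries. Eng was the 1 endothelial marker that fell over 7 libraries, by 0.59 ± 0.08 (5.4e-05), whereas the median log2 change of the 12 was 2.075. The part of these cells and of dividing cells in the rise of the ribosome biogenesis factors was not tested.

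The 2 comparisons share no library, and chelator and iron were given to different cells. Of 44 members tested in both, 9 fell with DFO in hepatocytes and rose with iron in stellate cultures (7 libraries): Nop56, Nop58, Snu13, Gar1, Brix1, Mrto4, Isg20l2, Gtpbp10 and the pseudogene Gm25432. They are 32.1% of the 28 that fell and 81.8% of the 11 that rose. Among all 14313 genes tested in both, 1095 did the same, 24.7% of the 4436 lower with DFO and 42.1% of the 2602 higher with iron. Emg1 and Gtpbp4 rose with iron without passing with DFO. Riox2, Mtg1, Noc4l, Tsr1, Drosha, Aatf and Znhit6, all lower by over 0.35 on the log2 scale with DFO, did not pass with iron over either set of libraries. Whether the members differ from other genes in this overlap was not tested.

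**Figure D5:**
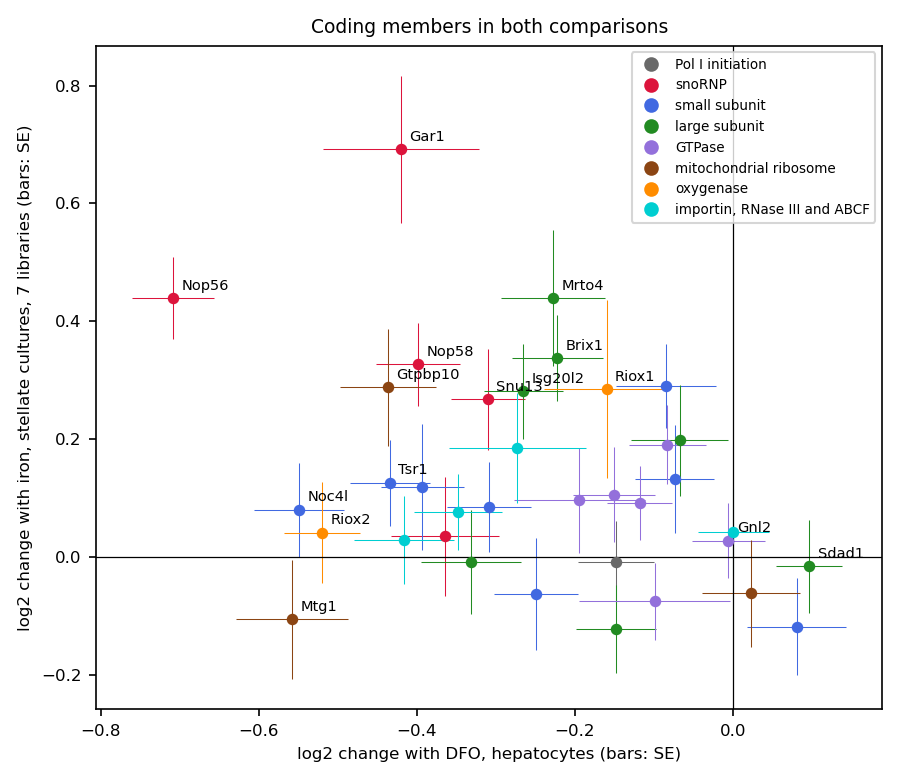
Log2 change with DFO in hepatocytes (horizontal) against log2 change with iron in stellate cultures over 7 libraries (vertical) for the 36 coding ribosome biogenesis factors, coloured by role, with standard errors as bars. The 8 coding members called in both lie in the upper left, from Gar1 at −0.42 and 0.69 to Snu13 at −0.31 and 0.27, while Riox2, Mtg1 and Noc4l lie left of 0 and near 0 vertically.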

How the data were processed

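RNA was measured in 22 libraries. Per the submitters' processing notes, the tools were cutadapt 1.9.1 and HISAT2 2.0.1, with mm10 as genome build. The authors deposited whole-number counts per gene and FPKM values made from them. How reads were counted, and with which strand setting, is not given in the sources used here. Overlapping genes, antisense genes and near-identical copies therefore cannot be told apart. The protocol text in the labels names a small RNA library kit and 4 biological replicates per group, whereas 5 or 6 libraries per group are listed. Coordinates are those of the deposited tables (mm10); all 100 members have the same start and end in GENCODE M21.

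Each table was fitted alone with edgeR 4.0.16 (R 4.3.3; quasi-likelihood test, TMM factors, filterByExpr with a minimum count of 10), with Benjamini-Hochberg adjustment over all genes tested and a threshold of 0.05. A number in parentheses after a log2 change is that adjusted p unless named otherwise, and ± after a log2 change is the standard error implied by the F value. The 95% intervals are 1.96 standard errors wide on each side. Levels are TMM-normalised CPM, or the deposited FPKM. The fit was tested on simulated data. Alternatives were DESeq2 1.42.0, RLE factors, no filter, limma 3.58.1 on log2 FPKM with a pseudocount of 1 or 0.1 for genes with at least 0.5 FPKM in 3 libraries, the replicate number as a block, leaving out each library, and the 7 stellate libraries. For those 7, DESeq2, limma and leaving out each library were chosen after seeing the data.

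The members, the lists of other genes and the roles were chosen with earlier results of these data known. The text names all 36 coding members, a choice made after seeing the data that is wider than the rule for named genes. That rule takes the 6 largest rises and falls among called members reaching 1 FPKM, the 3 of smallest p per role, and the MYC-network and iron-dependent genes whatever their values. Other pseudogenes, snoRNP, p53-response and marker genes were chosen after their values were seen. Every pair of libraries within a group differed beyond counting noise (smallest chi-square per degree of freedom 3.44 in hepatocytes and 5.59 in stellate cultures). Promoter windows are RefSeq's.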

Additional observations from a re-analysis of the deposited data

Results flagged for a closer look

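In groups of 5 or 6 libraries, a library was picked out where its gap to the nearest other passed the 95% critical value of Dixon's test. Of 152 groups tested (36 coding members and 2 pseudogenes in 4 groups), 24 had one; chance gives about 1 in 20. Con-HSC-3 accounted for 14, Fe-HSC-5 for 6, DFO-Hepa-6 for 3 and Con-HSC-5 for 1.

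In DFO-Hepa-6, Gar1 (22.1 CPM, others 14.6 to 17.0), Mrto4 (45.1 CPM, others 33.6 to 37.7) and Noa1 (20.3 CPM, others 17.3 to 17.6) were the highest of their group.

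Con-HSC-3 was the lowest control for 24 of the 36 coding members, and for 11 of them its gap passed the critical value. The snoRNP proteins Snu13 (25.2 CPM, others 74.4 to 84.9), Nop58 (124 CPM, others 174 to 183) and Znhit6 (21.99 CPM, others 39.6 to 42.8) were among them. So were the small-subunit factors Emg1 (33.0 CPM, others 50.5 to 55.8), Rrp36 (13.6 CPM, others 28.9 to 32.7) and Utp23 (10.5 CPM, others 15.9 to 17.5), and the large-subunit factors Brix1 (33.6 CPM, others 52.8 to 55.9) and Rsl24d1 (21.4 CPM, others 34.7 to 38.7). The GTPases Gnl3 (84.2 CPM, others 110 to 119), Mtg1 (7.85 CPM, others 13.5 to 15.7) and Noa1 (10.4 CPM, others 20.5 to 23.0) complete the 11. It was the highest control for Drosha (86.6 CPM, others 56.8 to 60.9), Gnl3l (87.4 CPM, others 64.5 to 65.2) and Ipo9 (194 CPM, others 134 to 139).

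Fe-HSC-5 was the lowest iron library for Gnl2 (34.7 CPM, others 75.5 to 81.4), Gnl3 (57.4 CPM, others 118 to 124), Gtpbp10 (10.4 CPM, others 21.2 to 24.0) and Mphosph10 (2.89 CPM, others 37.8 to 51.6). It was the highest for Drosha (89.3 CPM, others 54.2 to 62.5) and Lsg1 (91.7 CPM, others 42.4 to 53.2). In Con-HSC-5, Surf6 was the highest control (38.8 CPM, others 35.9 to 36.5).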

How the results depend on the processing

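The fall with DFO changed least. Across DESeq2, RLE factors, no filter, limma at both pseudocounts and the replicate block, between 24 (the block) and 31 (limma) members were lower, and 27 to 31 when each library was left out. The count higher was 1 with DESeq2, RLE factors or without DFO-Hepa-6, and otherwise 0 (range 0 to 1 on leaving out each library). Their median log2 change was −0.13 without the filter, where 69 members entered, and −0.26 to −0.21 on leaving out each library. Values under these alternatives were compared for the 36 coding members and the pseudogenes Gm25432 and Gm6877, and not for the other tested pseudogenes. Of these values, 663 kept their direction and side of the threshold, 16 newly passed and 5 no longer did.

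For iron over 10 libraries, the count higher was 11 in the 7 libraries, 7 with DESeq2, 1 without the filter and 0 with the replicate block, and 0 to 3 on leaving out each library. The count lower was 0 in each. The median was 0.18 to 0.32 on leaving out each library. Without Con-HSC-1, Con-HSC-2, Con-HSC-4, Con-HSC-5, Fe-HSC-3 or Fe-HSC-4 the count was 0, and without Con-HSC-3 it was 1. Of the members tested over both sets, 13 had opposite signs over 10 and 7 libraries. Among them only Isg20l2 and Gtpbp4 were called in either set, going from −0.05 and −0.00 over 10 libraries to 0.28 and 0.19 over 7; the cause was not tested. Over the 7 libraries, 7 (without Con-HSC-4) to 13 (without Fe-HSC-4) members were higher, with medians of 0.10 to 0.19, and 11 with DESeq2 and 15 with limma.

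Same-numbered libraries did not deviate together, with r of −0.25 to −0.00 in hepatocytes and −0.32 to 0.12 in stellate cultures. In all, 0 libraries correlated best with their own number. Low correlation cannot show whether same-numbered libraries shared a preparation. The main fits do not use the number, and the block result is given only here. Among the coding members, edgeR with the block no longer called Gnl3 (0.0827), Lsg1 (0.0643) or Surf6 (0.0529) lower with DFO. No count was found for 31 members in any hepatocyte library and for 29 in any stellate library; for these nothing can be said of a change. The 7-library set rests on 4 and 3 libraries and was picked with the data known. No scaling alternative moved the median of all genes by over 0.1.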
